A study of Mus musculus with 6 samples.

Results

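The 10 tetraspanin genes described here are Cd81, Cd53, Cd9, Cd37, Cd63, Cd82, Cd151, Tspan3, Tspan13 and Tspan32, 10 of the 12426 genes measured in DN3 thymocytes. They were selected on their Tg against WT differences in these same arrays, above all a lower Cd81 and a higher Cd53, so their values are given as a description and carry no test. All probes whose gene name in the array table equals one of these symbols or an older one were taken, 17 probes in all, of which 14 passed the detection filter. Of the 10 genes, 8 were detected on all 6 arrays with the probe shown, and Cd63 and Tspan13 on 3 Tg arrays and 1 WT array. These 2 genes and the second Cd53 probe passed that filter through the Tg arrays.

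The study compared miR-185 Tg mice, which carry a transgene for the microRNA miR-185, with wild-type mice (WT) of the C57BL/6 strain, to look for molecular targets of miR-185. Each group has 3 samples of DN3 thymocytes, sorted as CD25 positive, CD44 negative cells that lack CD4, CD8 and surface markers of B, NK, gamma-delta T and myeloid cells. No source used here names the promoter that drives the transgene or the age or sex of the mice. The labels do not say that the samples came from separate mice, so every p-value measures only the spread between these samples, and RNA from sorted cells is bulk RNA, in which fewer cells of a type and less RNA per cell cannot be told apart.

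Tetraspanins are small proteins that cross the membrane with 4 helices and gather integrins, immunoglobulin-type receptors and each other into membrane patches. On T cells CD81 acts as a costimulatory protein. CD53 and CD37 are largely restricted to white blood cells, and CD63 marks late endosomes and the vesicles released from them. DN3 is the thymic stage at which the T cell receptor beta chain is rearranged and signals through the pre-T cell receptor.

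The start region of the gene that was lower in Tg samples, Cd81, and of its counterpart that was higher, Cd53, are shown first, with the hairpin of miR-185, since the report turns on that pair and that microRNA. The 3 sequences come from RefSeq tables of build GRCm38.p6, and all 10 genes matched a start-region entry. Each start region is the 250 bases before the gene's start, 5′ to 3′ on the gene's own strand. Capitals mark matches, on either strand, to 6 searched motifs: GGGCGG (GC box), CCGGAA and AGGAAG (ETS), CAGCTG (E-box), TGTGGT (RUNX) and TGGGAA (RBPJ). CCGGAA and AGGAAG share the core GGAA, as does TGGGAA, but the base before it differs, so any 1 GGAA can match only 1 of them.
Mir185 hairpin, chr16:18327401-18327465, minus strand: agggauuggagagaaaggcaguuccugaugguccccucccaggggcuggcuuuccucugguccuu
Cd81 start region, chr7:143052500-143052749, plus strand: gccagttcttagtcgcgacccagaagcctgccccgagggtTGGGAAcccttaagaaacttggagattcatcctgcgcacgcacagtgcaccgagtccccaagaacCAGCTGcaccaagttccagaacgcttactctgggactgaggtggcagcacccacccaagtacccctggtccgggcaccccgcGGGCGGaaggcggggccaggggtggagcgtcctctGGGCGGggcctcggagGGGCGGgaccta
Cd53 start region, chr3:106790150-106790399, minus strand: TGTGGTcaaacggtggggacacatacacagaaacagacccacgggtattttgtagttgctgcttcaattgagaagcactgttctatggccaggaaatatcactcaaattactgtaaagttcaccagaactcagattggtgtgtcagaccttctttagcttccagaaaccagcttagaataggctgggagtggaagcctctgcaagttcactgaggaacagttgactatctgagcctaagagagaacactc
The Cd81 stretch was 65.6% G and C with 16 CpG, against 45.2% and 2 CpG in the Cd53 stretch. Over all 32851 start regions in the table, the median was 52.4% with 6 CpG. The Cd81 stretch held 3 GC box matches, 63, 28 and 12 bases before the start, 1 E-box match at 145 and 1 RBPJ match at 210. The Cd53 stretch held 1 RUNX match, at 250. Of all start regions, 32.7% held a GC box match, 13.0% an E-box match, 21.6% an RBPJ match and 14.0% a RUNX match. A match is a run of letters and says nothing about binding.

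Between 17879 and 18913 of 45281 probes were detected per array, and all 6 arrays lie on 1 chip. WT 2 and WT 3 correlated at 0.996 across probes, against 0.925 to 0.987 for the other pairs, and miR-185 Tg 2 lay apart on the first principal component, at -65.08 against -5.82 to 23.9 for the other 5 arrays. Defining markers of DN3 cells were all detected, 11 of 11. Of the B cell genes, Pax5, Ebf1 and Blnk were detected on no array, Ms4a1 on 1 Tg and 1 WT array, and Cd79b on all 6, at 8.56 to 8.98 in Tg and 8.71 to 9.27 in WT. Itgax, Itgam and Adgre1 of macrophages and dendritic cells were detected on no array, as were Pf4, Ppbp and Itga2b of platelets, while Gp9 of the platelet list was detected on 2 Tg and 2 WT arrays. Summed marker signal did not overlap between the groups for DN3 cells (35100 to 37900 in Tg, 27500 to 29800 in WT), NK cells (2500 to 3490 in Tg, 773 to 1140 in WT, from Nkg7), macrophages and dendritic cells (359 to 589 in Tg, 214 to 298 in WT) and neutrophils (94.3 to 97.8 in Tg, 130 to 416 in WT). Bright genes weigh most in such sums, and Ncr1, Klrb1c and Klrk1 of the NK list were detected on no array. Of the DN3 genes, Il2ra, Cd3e, Notch3 and Dtx1 were higher in all Tg arrays than in all WT arrays. The groups overlapped for Ptcra, Rag1, Rag2, Notch1, Hes1, Bcl11b and Tcf7. Of the neutrophil genes, none was detected on a Tg array. S100a8 was detected on 3 WT arrays, and S100a9, Ngp, Camp and Ltf on 1 WT array each. The erythroid sum ran from 1010 to 2130 in Tg and from 440 to 15000 in WT, and the globin gene Hbb-b1 had 9.58, 10.21 and 9.40 in Tg 1, 2 and 3, against 8.003, 12.40 and 13.12 in WT 1, 2 and 3. WT 2 and WT 3 thus stood above all other arrays in globin signal and WT 1 below them all. The part of these marker differences in the tetraspanin values was not tested.

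Cd81 and Cd53 differed in opposite directions, and Cd81 was the lowest of the 10 by Tg minus WT difference. On the normalised log2 intensity scale, Cd81 had 7.69, 7.94 and 8.25 in Tg 1, 2 and 3, against 10.46, 9.68 and 10.15 in WT 1, 2 and 3. Its Tg mean was 7.96 ± 0.28, against a WT mean of 10.10 ± 0.39 (SD, n = 3 each). Every Tg array was below every WT array, with a gap of 1.42 between the highest Tg and the lowest WT value. The difference was -2.13 ± 0.26 (log2, Tg minus WT, ± SE), a level in Tg 4.39-fold lower than in WT. Before any normalisation, the deposited Cd81 intensities were 320.8, 348.6 and 336.8 in Tg and 1686.5, 860.5 and 1161.9 in WT, which gives a 3.69-fold ratio of means. Among these deposited intensities the Tg values lie close together, and the spread sits in WT, where WT 1 is the highest. On the normalised log2 scale the range was 0.56 in Tg and 0.78 in WT.

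Cd53, a leukocyte tetraspanin, had 9.40, 9.42 and 10.11 in Tg 1, 2 and 3, against 8.26, 8.61 and 8.50 in WT 1, 2 and 3. Means were 9.65 ± 0.40 in Tg and 8.46 ± 0.18 in WT (SD, n = 3 each), a difference of 1.19 ± 0.25 (log2 ± SE), 2.28-fold higher in Tg. All Tg arrays were above all WT arrays, with Tg 3 the highest by 0.69. Deposited intensities were 830.0, 851.7 and 989.5 in Tg, against 427.1, 456.0 and 428.5 in WT. A second Cd53 probe was detected on 3 Tg and no WT arrays, with 5.21, 4.86 and 5.90 in Tg, against 4.38, 4.53 and 4.59 in WT. On the normalised scale its level in Tg was at least 1.57-fold higher, a bound set by the lowest detected signal on each WT array. That bound holds only for the background correction used. The deposited intensities of this probe were 126.7, 116.0 and 135.4 in Tg, against 108.4, 105.8 and 107.6 in WT, a 1.17-fold ratio of means. Tg 3 was the highest array with both probes.

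**Figure D1:**
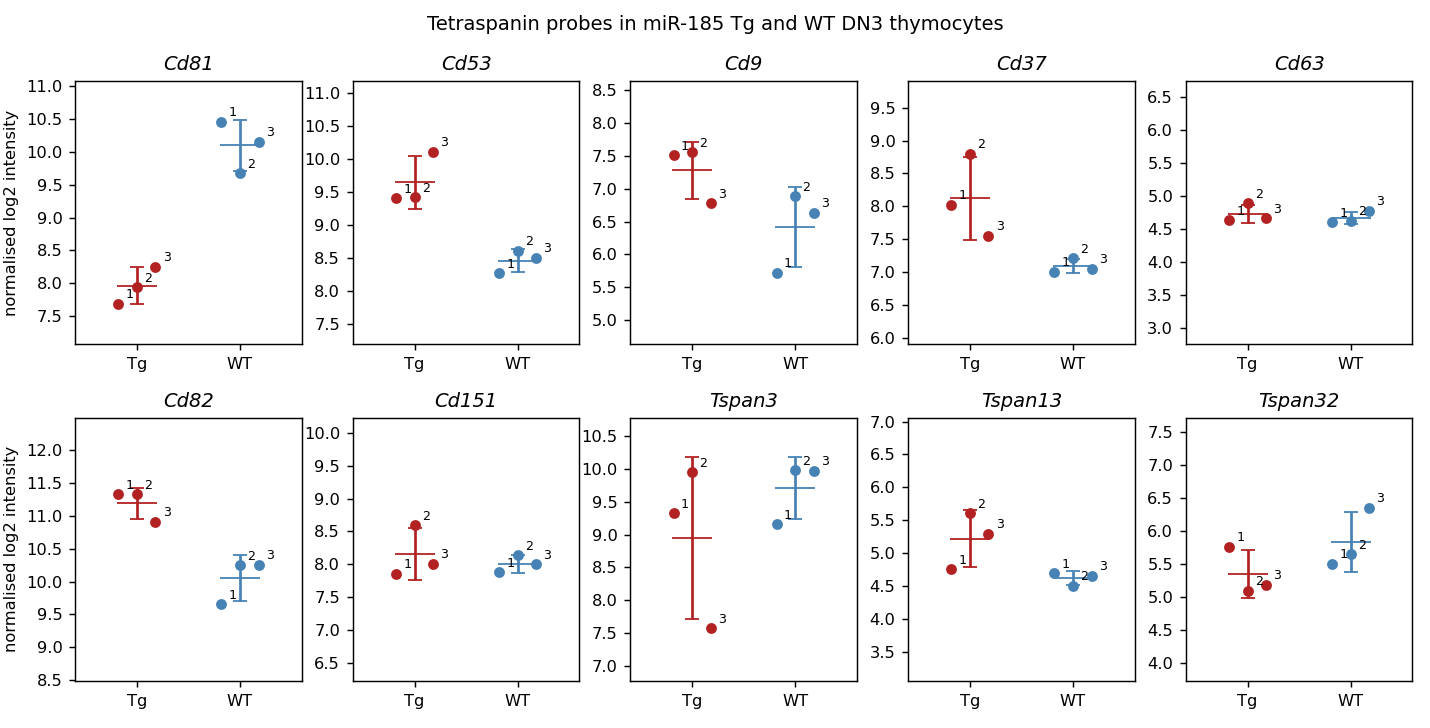
Normalised log2 intensity (vertical axis, same span in each panel) of the 10 tetraspanins in 3 miR-185 Tg (left, red) and 3 WT (right, blue) arrays; numbers are replicates, bars the mean and SD. Cd81 sits at 7.69 to 8.25 in Tg and 9.68 to 10.46 in WT, while Cd53, Cd82 and Cd37 are higher in all Tg arrays, and a low Tg 3 widens Tspan3.

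Cd82, also known as a metastasis suppressor, and Cd37, which restrains T cell proliferation in mice, were the other well expressed members whose groups did not overlap. Cd82 had 11.33, 11.33 and 10.91 in Tg 1, 2 and 3, against 9.65, 10.25 and 10.26 in WT 1, 2 and 3, a difference of 1.14 ± 0.22 (log2 ± SE) and 2.20-fold higher. Cd37 had 8.02, 8.80 and 7.55 in Tg, against 7.01, 7.21 and 7.05 in WT, a difference of 1.03 ± 0.33, 2.05-fold higher. In Cd37 the spread is in Tg, with Tg 2 highest by 0.78, and the WT values lie within 0.20 of each other. In Cd82 Tg 1 and Tg 2 are level and WT 1 is lowest by 0.59.

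Cd9, a tetraspanin of adhesion and of egg and sperm fusion, had 7.51, 7.55 and 6.78 in Tg, against 5.72, 6.88 and 6.64 in WT, a difference of 0.86 ± 0.37 (log2 ± SE). The groups overlap, since Tg 3 lies below WT 2. The lowest Cd9 array was WT 1, as for the shown probes of Cd53, Cd37, Cd63 and Cd82, but not of the remaining members. The macrophage gene Lyz2 had 8.29, 8.59 and 7.42 in Tg and 5.75, 7.19 and 7.02 in WT, also lowest in WT 1. Cd74, of the same marker list, was detected on 3 Tg arrays and no WT array. Cd68 of that list had 4.56, 4.43 and 4.74 in Tg, against 4.97, 4.54 and 4.97 in WT. Csf1r was detected on 2 Tg and 2 WT arrays and Siglech on 1 Tg and 1 WT array. Itgax, Itgam and Adgre1 were detected on no array. The share of Cd9 signal from other cells was not tested.

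Tspan13 and Cd63 were dim. Tspan13 had 4.76, 5.61 and 5.29 in Tg, against 4.70, 4.51 and 4.66 in WT, a difference of 0.60 ± 0.22 (log2 ± SE), with the groups apart by only 0.06. Cd63 had 4.64, 4.89 and 4.67 in Tg, against 4.60, 4.62 and 4.78 in WT, a difference of 0.06 ± 0.13 with overlapping groups. The lowest detected signal was 4.62 to 4.70 per array, so both genes sit at the edge of what the arrays could see. The other 2 Cd63 probes were detected on no array.

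Cd151, which binds laminin-receptor integrins, had overlapping groups with all 3 of its probes. The brightest probe had 7.858, 8.597 and 8.008 in Tg, against 7.877, 8.137 and 7.998 in WT, a difference of 0.15 ± 0.26 (log2 ± SE), and the other 2 gave 0.29 and 0.04. Tg 2 was the highest array with each of the 3 probes.

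Tspan3 and Tspan32 had lower Tg means with overlapping groups. Tspan3, needed by leukaemia stem cells in mice, had 9.32, 9.95 and 7.57 in Tg, against 9.16, 9.98 and 9.97 in WT, a difference of -0.75 ± 0.57 (log2 ± SE). Tg 3 alone set that value: it lay 1.58 below the next lowest array, and without it the difference was -0.07. Its deposited intensity in Tg 3 was 241.6, against 718.6 to 1211.1 on the other 5 arrays, and the second Tspan3 probe, dim and detected on 2 Tg and 1 WT arrays, gave 0.05. Tspan32, a blood-cell tetraspanin whose loss increases T cell proliferation in mice, had 5.76, 5.09 and 5.18 in Tg, against 5.50, 5.65 and 6.35 in WT, a difference of -0.49 ± 0.29. A second probe under its older symbol was detected on no array.

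In the fit over all genes, 4.23% of the 12426 genes were called at an adjusted p under 0.05 (limma with Benjamini-Hochberg adjustment), 2.55% higher and 1.68% lower in Tg, and 28.2% had groups that did not overlap. Of the 10 tetraspanins, 3 were called, Cd53 and Cd82 higher and Cd81 lower, and 5 had groups apart, 4 higher and 1 lower. Since these genes were chosen on this contrast, nothing is read from those counts or from the medians and the Tg 3 share that follow. The median difference of the 10 was 0.37 and the median size of difference 0.81, against -0.0014 and 0.27 over all genes. Tg 3 was the Tg array nearest to WT in 6 of the 10, against 35.3% of all genes.

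**Figure D2:**
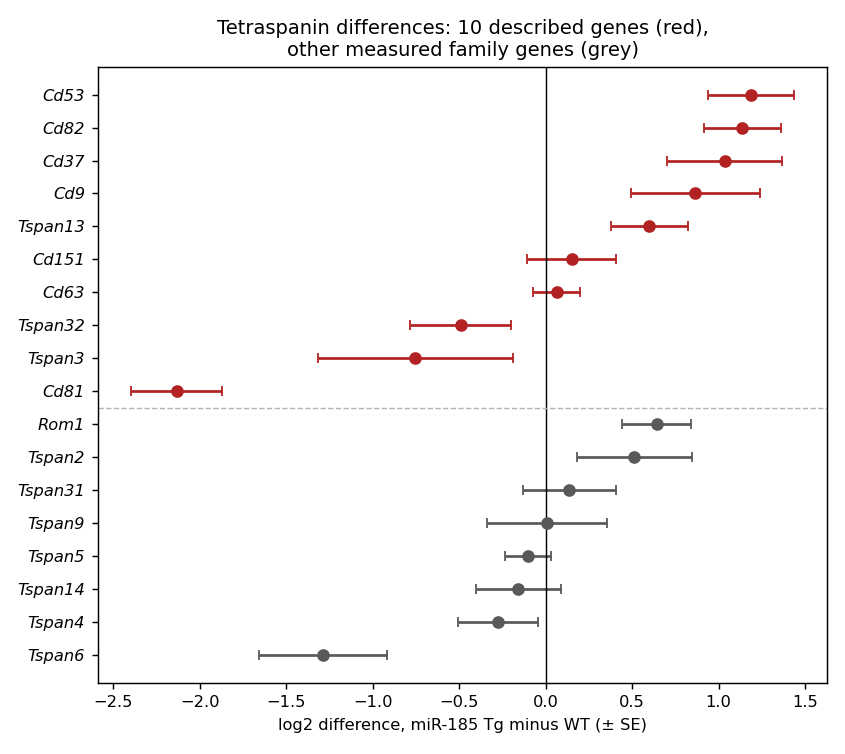
Log2 difference, Tg minus WT, ± SE (horizontal axis) for the 10 tetraspanins (red) and the 8 other measured family genes (grey), each group ordered by difference. Cd81 stands at -2.13, Cd53 at 1.19, and Tspan6, at -1.29, is the lowest of the other family genes.

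Cd81 kept a difference of -2.34 to -1.95 and Cd53 of 0.95 to 1.31 when any 1 array was left out. The count of called members fell to 0 without Tg 1, WT 1 or WT 3 and to 1, Cd81, without WT 2. It was also 0 with WT 2 and WT 3 averaged as 1 sample. Cd53 was not called with no detection filter or with the mean of its kept probes, and Cd82 was not called with median scaling, which left 2 called members in each case. Without Tg 2 the called members were Cd81, Cd53 and Cd82, and without Tg 3 they were Cd81, Cd82 and Cd37. The smallest p that an exact permutation test of 3 against 3 samples can give is 0.1.

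**Figure D3:**
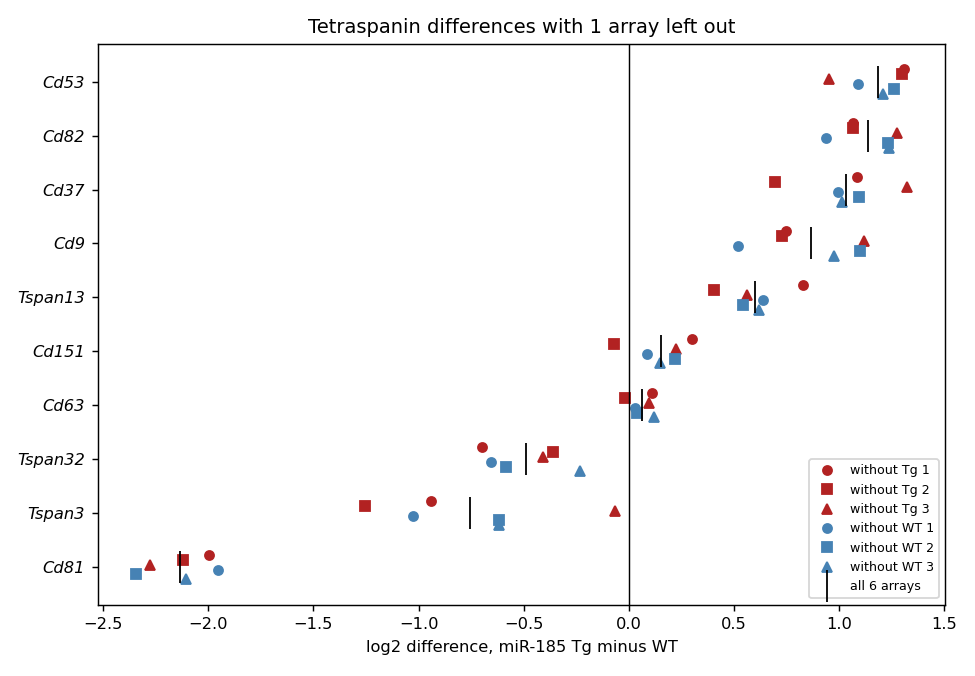
Log2 difference, Tg minus WT (horizontal axis), of each tetraspanin with 1 array left out (red without a Tg array, blue without a WT array) and with all 6 (black line). Cd81 stays between -2.34 and -1.95 and Cd53 between 0.95 and 1.31, while Tspan3 goes to -0.07 without Tg 3.

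The rest of the family was tested in the fit over all genes, of which 4.23% were called. This list and those that follow were chosen with earlier results of these data known. Of 22 other listed tetraspanins, 21 are on the array and 8 were in the fit, and limma called 0 of the 8. An unadjusted limma p under 0.05 was reached by 2 of the 8, against 2487 of all 12426 genes. The median difference of the 8 was -0.05. Tspan6 came closest, with 6.82, 6.81 and 8.11 in Tg, against 8.60, 8.62 and 8.38 in WT, a difference of -1.29 ± 0.37 (limma adjusted p = 0.09996). Tg 3 is the array that narrows it, and without Tg 3 the difference was -1.72 and Tspan6 was called. Rom1, a protein of photoreceptor discs, had 0.64 ± 0.20 (limma adjusted p = 0.121), Tspan2 0.51 ± 0.33 (limma adjusted p = 0.447) and Tspan4 -0.28 ± 0.23 (limma adjusted p = 0.567). Tspan5 and Tspan14, which escort the protease ADAM10, gave -0.10 and -0.16, Tspan31 0.14 and Tspan9 0.01.

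Genes of proteins known to bind tetraspanins numbered 21, of which 20 are on the array and 10 were in the fit. Limma called 1 of the 10, against 4.23% of all genes. The called gene was Cd2, an adhesion receptor of T cells, with 5.35, 5.79 and 5.18 in Tg, against 7.10, 6.42 and 7.45 in WT. All Tg arrays were below all WT arrays, and 28.2% of all genes had groups that did not overlap. Cd2 fell by 1.55 ± 0.31 (log2 ± SE, limma adjusted p = 0.0361). That call was lost without any 1 array other than Tg 2, with adjusted p between 0.0591 and 0.170 in those 5 cases. The difference was -0.73 with no background correction and -0.75 with the authors' series values, with the call kept in both. Icam1, a ligand of the integrin LFA-1, had a difference of 0.96 ± 0.27 (limma adjusted p = 0.0989) and Itgb1, an integrin beta chain, -0.80 ± 0.26 (limma adjusted p = 0.129). The median of the 10 was -0.03.

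Of 13 genes of endosomal sorting and vesicle release, 12 were in the fit and limma called 0, against 4.23% of all genes. An unadjusted limma p under 0.05 was reached by 2 of the 12, against 2487 of all 12426 genes. The median difference of the 12 was 0.13. Sdcbp, the syntenin adaptor that binds CD63, had 0.46 ± 0.17 (limma adjusted p = 0.168) and Lamp1, a lysosomal membrane protein, 0.39 ± 0.16 (limma adjusted p = 0.237). Hgs, a sorting protein of endosomes, had 0.36 ± 0.20 (limma adjusted p = 0.375), and Lamp2 had 0.48 ± 0.38 (limma adjusted p = 0.541).

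Of the 10 tetraspanins, 4 lie on chromosome 7, and Cd81 and Tspan32 lie in its distal imprinted cluster, with 1 annotated gene, the non-coding R74862, between them. Imprinted genes of this cluster are expressed from 1 parental copy. Of 18 other listed genes of the cluster, 17 are on the array and 10 were in the fit. Of these 10, 2 were called, both lower, against 1.68% of all genes called lower. The median difference of the 10 was 0.11. H19, a non-coding RNA, had 8.48, 9.80 and 9.87 in Tg, against 10.65, 11.71 and 12.11 in WT, and fell by 2.11 ± 0.47 (limma adjusted p = 0.0479). Igf2, a growth factor gene beside it, had 4.71, 5.05 and 4.56 in Tg, against 5.81, 6.69 and 7.24 in WT, and fell by 1.81 ± 0.35 (limma adjusted p = 0.0349). Igf2 was detected on 2 Tg and 3 WT arrays, and the lowest detected signal on the Tg arrays was 4.62 to 4.69. In both genes all Tg arrays were below all WT arrays, and 28.2% of all genes had groups that did not overlap. Both calls were lost without Tg 1 or any 1 WT array and with WT 2 and WT 3 averaged, where the adjusted p was 0.190 for H19 and 0.132 for Igf2, and the Igf2 call also without Tg 3. The Igf2 difference was -0.71 with no background correction (limma adjusted p = 0.0586) and -0.72 with the authors' series values (limma adjusted p = 0.0610), where the call was lost too. Cdkn1c, a cell-cycle inhibitor gene, had -0.66 ± 0.27 (limma adjusted p = 0.222) and Tnfrsf26 0.41 ± 0.18 (limma adjusted p = 0.244). Tssc4, directly beside Cd81 with 0 annotated genes between, gave 0.10 ± 0.30, and 14 genes lie between Cd81 and H19.

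**Figure D4:**
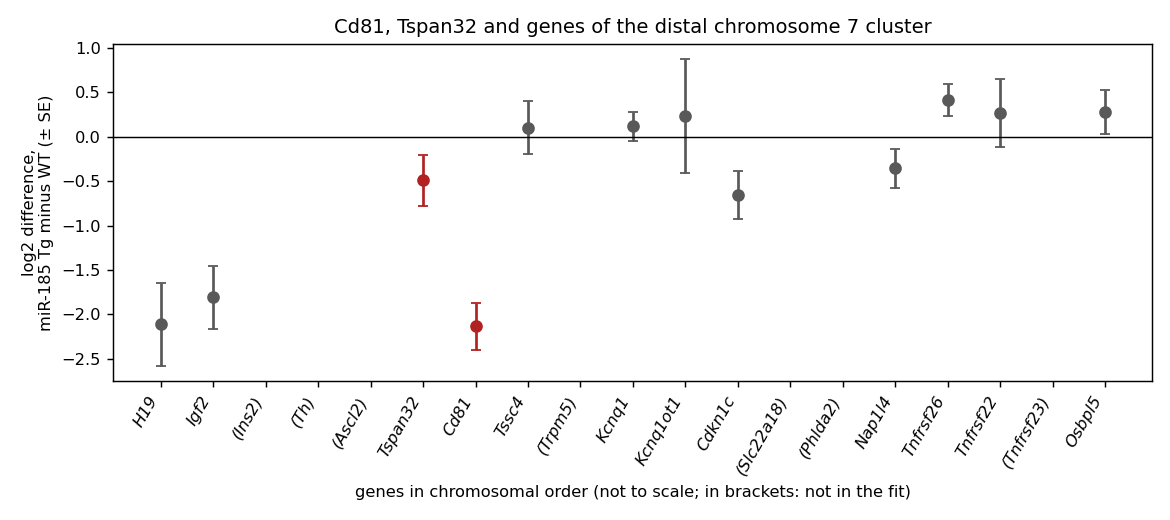
Log2 difference, Tg minus WT, ± SE (vertical axis) for Cd81 and Tspan32 (red) and the measured genes of the distal chromosome 7 cluster (grey), in chromosomal order and not to scale; bracketed genes were not in the fit. H19, Igf2 and Cd81 lie at -2.11, -1.81 and -2.13, and Tssc4, directly beside Cd81, at 0.10.

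The genes whose pattern over the 6 arrays was most like that of each lead gene were taken by the root mean square difference of mean-centred log2 values, among 9610 named genes. For Cd81 these were Hoxa7 at 0.21, Fbln1 at 0.21, Tpst1 at 0.22, Bcat1 at 0.23 and Gja1 at 0.25. Hoxa7 had 7.21, 7.33 and 7.62 in Tg, against 9.89, 9.65 and 9.75 in WT. For Cd53 they were Pigm at 0.10, Gpr171 at 0.15, Cd96 at 0.15, Ypel5 at 0.17 and Tctex1d2 at 0.17. Cd96 had 8.53, 8.54 and 9.08 in Tg, against 7.67, 7.54 and 7.62 in WT. With other processing or fewer arrays, 3 to 5 of the Cd81 genes and 0 to 5 of the Cd53 genes stayed among the nearest 5, with 0 for Cd53 without Tg 3.

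**Figure D5:**
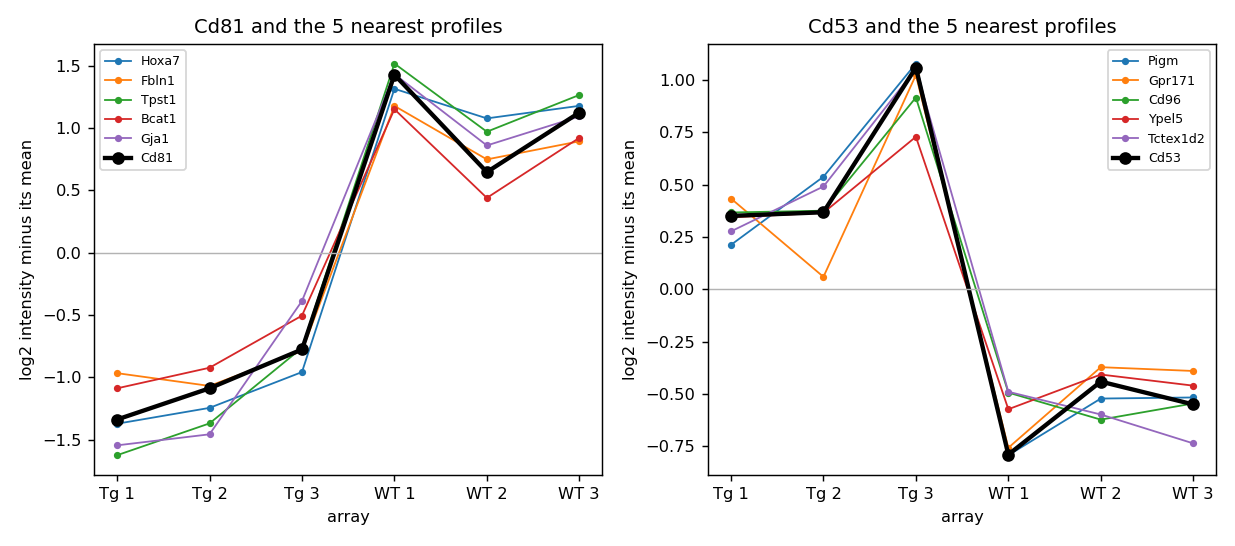
Mean-centred log2 intensity (vertical axis) on each array (horizontal axis) of Cd81 (left) and Cd53 (right), in black, with the 5 genes of the most similar pattern; lines only join the points of 1 gene. The 5 genes near Cd81 are low on all 3 Tg arrays and the 5 near Cd53 are highest on Tg 3.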

How the data were processed

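RNA from sorted DN3 thymocytes of 3 miR-185 Tg and 3 WT samples was measured on Illumina MouseWG-6 arrays, with groups taken from the sample titles. Per the file headers, GenomeStudio 1.9.0 produced the deposited probe values, which are mean bead intensity on a linear scale, a detection score (a fraction between 0 and 1), bead numbers and bead errors. No source used here says whether background was subtracted before deposit. The authors' series values are log2 of the deposited gene table. The detection p used here is 1 minus that score.

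Intensities were corrected with normexp (offset 16) and quantile normalised (limma 3.58.1, R 4.3.3). A detection p under 0.05 was required on 3 or more of the 6 arrays, which kept 18597 of 45281 probes, and the brightest probe represented each of 12426 genes. The 6 arrays were fitted with limma (lmFit, then eBayes with trend). Calls used a threshold of 0.05 on p adjusted by Benjamini-Hochberg; the number of arrays limits the precision. Differences are Tg minus WT on the normalised log2 scale and understate the change of dim genes. Of 30774 gene names, 15991 matched a RefSeq symbol and 5826 a synonym (GRCm38.p6), with 8957 left unmatched. The members and lists were chosen with earlier results of these data known. Named genes were all members, every called gene of each list with up to 4 more by smallest p, and the 5 nearest to Cd81 and to Cd53; single values named outside this rule (the remaining family genes, single marker genes and Tssc4) were chosen after their values were seen. Some list genes are not reported here. Mature miR-185 is not measured by these arrays. The fit was tested on simulated data. Alternatives covered background correction, normalisation, filters, variance model, array weights, a replicate block, probe rule, threshold and left-out arrays.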

Additional observations from a re-analysis of the deposited data

How the results depend on the processing

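With 3 arrays a group, precision is limited by their number, and dim probes near the lowest detected signal are the least certain. Under 21 alternatives, 203 of 208 member differences kept their sign, and all 5 that turned were Cd63 or Cd151. All 334 differences of 16 other list genes kept theirs, with 25 values losing a call and 22 gaining one. Part of these signs were kept by construction. The changes of variance model, replicate block and threshold cannot alter a difference, and the detection filters left those of the genes they kept unchanged. The Cd81 difference was -2.49 with WT 2 and WT 3 left out, and Cd81 and Cd53 ran over single left-out arrays from -2.34 to -1.95 and from 0.95 to 1.31. The cause of the changes below was not tested.

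The 526 genes called became 310 with median scaling, 312 with no detection filter, 4472 with array weights, 36 with WT 2 and WT 3 averaged, 1 with both left out (WT 1 is then the only WT array, assumed to vary like the Tg arrays), 1049 at an adjusted p under 0.1 and 1 to 1709 with single arrays left out. The 3 called members became 6 with array weights, 2 with median scaling (without Cd82), with no detection filter or with the mean of kept probes (both without Cd53), 0 with WT 2 and WT 3 averaged or left out, and 0 to 3 with single arrays left out. Array weights called 5 of 8 other tetraspanins, 5 of 10 partners, 6 of 12 vesicle genes and 6 of 10 chromosome 7 genes. Over all genes they called 4472 of 12426. An adjusted p under 0.1 gave 1 of 8 other tetraspanins and 3 of 10 partners, against 1049 of 12426 genes. Median scaling and cyclic loess each gave 2 partners. Chromosome 7 genes called were 1 with no background correction, 1 with detection on all 6 arrays, 1 without a trend and 0 with the authors' values. With WT 2 and WT 3 averaged or left out, partners and chromosome 7 genes called were 0. Over single left-out arrays the ranges were 0 to 1 for other tetraspanins, 0 to 3 for partners, 0 to 3 for vesicle genes and 0 to 2 for chromosome 7.

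Tspan13 fell to a difference of 0.17 with no background correction or with the authors' values, and Cd9 and Cd82 went to 1.56 and 1.53 with WT 2 and WT 3 left out. With the replicate block, 264 genes, 1 member (Cd81) and 0 partners were called. Same-numbered arrays did not deviate together (correlations of deviations -0.252, 0.109 and -0.217), so the numbers were not taken to pair the samples.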
